A study of Mus musculus with 4 samples.

Results

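Cadherin and protocadherin genes were examined as a family across mandible and maxilla and brain of FoxO6-/- and wild type (WT) mice. The members follow from gene names and not from their values, although the family was proposed with earlier results of these data known. All genes whose symbol starts with Cdh or Pcdh followed by a digit, a or b, and which have a probe set annotated to that gene only, were taken, and for each the brightest probe set by mean signal over the 4 arrays was read. This gave 55 of the 18193 named genes on the array, measured by 100 of 45101 probe sets. They are 21 cadherins and 34 protocadherins. By subfamily there were 5 type I and 11 type II classical cadherins, 5 other cadherins, 9 delta protocadherins, 22 beta protocadherins and 3 other protocadherins. Of the gene symbols in RefSeq, 71 fit the rule. Of the remaining 16, 14 alpha protocadherins have only probe sets that several of these genes share, and these are described apart from the members. Cdh12 and Cdh24 have no probe set of their own name and were not analysed here.

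Cadherins are calcium-dependent adhesion proteins of the cell surface. Classical cadherins bind the same cadherin on the neighbouring cell and are anchored to the actin cytoskeleton through beta-, p120- and alpha-catenin, and the set of classical cadherins that a cell carries helps to sort cells into tissues. Protocadherins have related extracellular repeats but lack the classical catenin-binding tail. The delta protocadherins are scattered through the genome and are known mostly from the developing nervous system, whereas the alpha, beta and gamma protocadherins form tandem clusters whose isoforms are combined differently in single neurons and serve self-recognition.

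RNA was hybridized to Affymetrix mouse arrays, 1 array each for FoxO6-/- mandible and maxilla, WT mandible and maxilla, FoxO6-/- brain and WT brain, so 4 arrays in all and 1 per group. In the mutant the coding region of FoxO6, a forkhead transcription factor, is exchanged for a LacZ and neomycin resistance cassette in every cell. The labels give postnatal day 0 for all samples, while the paper places the mandible and maxilla samples at E18.5. According to the methods RNA of 4 animals was combined for a mandible and maxilla array, and heterozygous as well as null animals are mentioned among the mutants. No source used here gives the number of animals behind a brain array. No probe set carries the name Foxo6 in the annotation used, so the genotype labels could not be checked against the deleted gene. The values are MAS5 signals on a linear scale, with a trimmed mean of 500.0 on every array. For Actb the 3' over 5' ratio, a sign of RNA quality, reached 3.37 in FoxO6-/- mandible and maxilla and lay between 2.21 and 2.23 on the remaining arrays. The precision is limited by the number of arrays.

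The labelled tissues were checked against markers of other cell types before the members were compared. Of 10 neuronal markers 9 rose in brain (limma adjusted p under 0.05) with a median log2 ratio of 4.02, and of 10 epithelial markers 9 were higher in mandible and maxilla with a median of -1.98. The brain arrays nevertheless held RNA of tissues outside the brain. The summed signal of 10 skeletal muscle markers was 56252 and 65935 on the FoxO6-/- and WT brain arrays against 128156 and 121468 in mandible and maxilla. The epithelial markers summed to 16380 and 11314 in brain, the bone markers to 26238 and 27487 and the cartilage markers to 44699 and 25486. The lens and retina markers summed to 29970 and 11051, nearly all from the lens genes Cryaa, Crygd, Crygb and Cryba1. The retina markers were below the floor set below, with 57.8 and 66.7 for Crx and 67.7 and 65.7 for Rax in FoxO6-/- and WT brain. In FoxO6-/- and WT mandible and maxilla Crx had 28.8 and 3.30 and Rax 10.8 and 7.90. The sum therefore describes lens genes, and whether the brain arrays held retina RNA cannot be decided from 2 genes this dim. Arrays of the same tissue also differed from each other in such markers. All 9 cartilage markers had a lower signal in FoxO6-/- than in WT mandible and maxilla (median log2 ratio -0.91) and all 9 were higher on the FoxO6-/- brain array (0.93). The 9 olfactory and nasal markers summed to 1262 in FoxO6-/- and 8989 in WT mandible and maxilla, and to 9597 and 1951 on the brain arrays in the same order. Bpifb9b made up most of the sum in WT mandible and maxilla (6546) and on the FoxO6-/- brain array (6462). It had 4.62 in FoxO6-/- mandible and maxilla and 1.72 in WT brain. Without it the other 8 summed to 1258 and 2444 in mandible and maxilla and to 3135 and 1949 in brain, where Gnal alone had 1691 and 1260. The part of these differences in the results below was not tested. In tissue RNA, fewer cells of a type and less RNA per cell cannot be told apart.

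A floor was set at a signal of 101, the median of all signals on the 4 arrays without control probe sets, because the log2 ratio of dimmer signals scatters widely. Of the 55 members, 30 had a mean at or above the floor in mandible and maxilla and 35 in brain. In all 29 reached it in both tissues, 6 only in brain, 1 only in mandible and maxilla (Cdh26) and 19 in neither. All 5 type I cadherins and 7 of 9 delta protocadherins reached the floor in both tissues, but 12 of 22 beta protocadherins reached it in neither. Signals of different genes come from different probes and cannot be ranked against each other, so each gene is compared only with itself across arrays. The plot of the signals of all members shows that brain and mandible and maxilla arrays separate for most delta protocadherins and lie close together for most beta protocadherins above the floor.

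**Figure D1:**
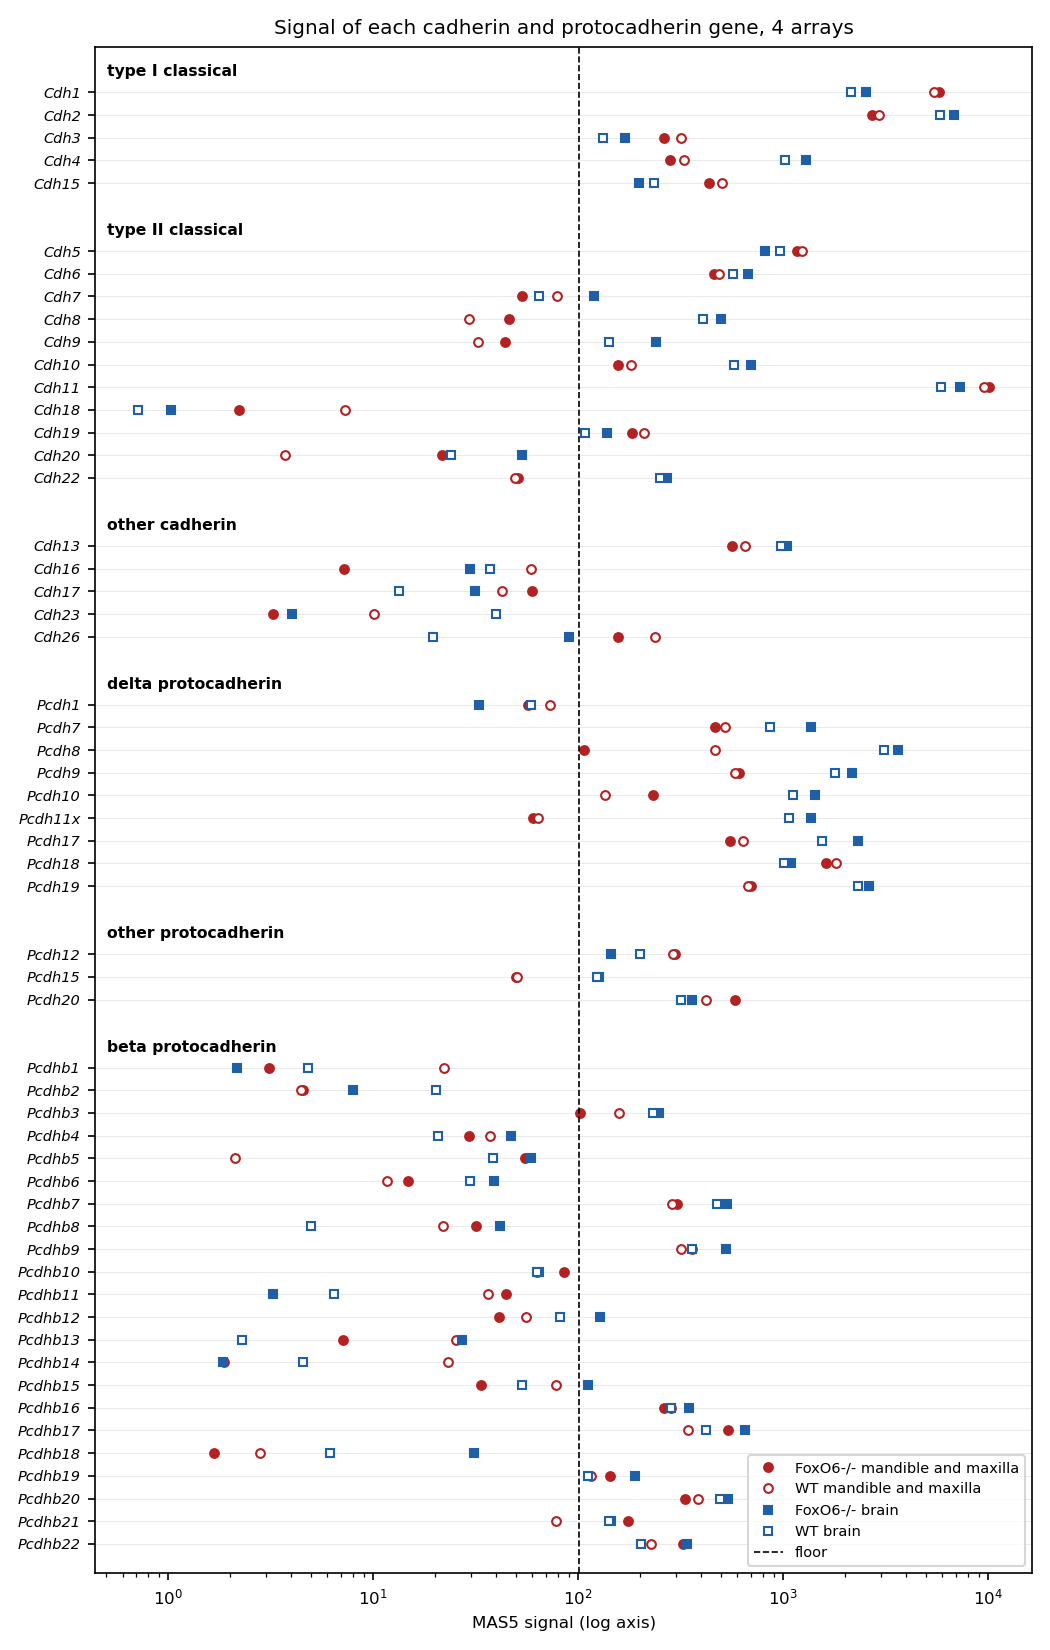
MAS5 signal (log axis) of the 55 cadherin and protocadherin genes on each of the 4 arrays, by subfamily, with the floor of 101 as a dashed line. Circles are mandible and maxilla, squares are brain, filled symbols are FoxO6-/- and open symbols WT. The brain squares of Pcdh8, Pcdh10, Pcdh11x and Pcdh19 lie to the right of both circles, and those of Cdh1 and Cdh15 to the left.

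To ask which members differ between the tissues, limma was fitted to the log2 signals, with terms for tissue and for genotype. The arrays of both genotypes thus stand in for replicates of a tissue, with 1 residual degree of freedom. The fit covered 12569 genes with a mean over the 4 arrays at or above the floor, of which 34 are members. Higher in brain at an adjusted p under 0.05 were 12 members, against 8.73% of all genes fitted, and higher in mandible and maxilla were 2 members, against 6.48% of all genes. The members higher in brain were 2 type I cadherins, 4 type II cadherins and 6 delta protocadherins. Both members higher in mandible and maxilla were type I cadherins. No beta protocadherin and no member of the other groups passed in either direction. At an unadjusted p under 0.05, 25 of the 34 members differed between the tissues. The share of all genes at that unadjusted threshold was not counted, so this number has no background to be read against. Some of the 12 entered the fit only through their high brain signal and so had to differ. When both tissues had to reach the floor, 9 of 29 members were higher in brain, against 7.21% of all genes, and 2 in mandible and maxilla, against 6.41%. Of these 9, 8 were among the 12, and the other was the beta protocadherin Pcdhb7.

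The type I classical cadherins split between the tissues. Cdh1 encodes E-cadherin, the adhesion protein of epithelial junctions. Its signal was 5739 in FoxO6-/- and 5459 in WT mandible and maxilla and 2552 and 2148 on the FoxO6-/- and WT brain arrays. The 2 tissues did not overlap, and Cdh1 was 2.39-fold higher in mandible and maxilla (log2 brain over mandible and maxilla -1.26, SE 0.15, limma adjusted p 0.0263). The epithelial markers moved in the same direction. Cdh2 encodes N-cadherin, known from neuroepithelium, neurons and several mesenchymal tissues. It had 2732 and 2937 in FoxO6-/- and WT mandible and maxilla and 6820 and 5848 in FoxO6-/- and WT brain. Brain was 2.23-fold higher without overlap (log2 1.16, SE 0.17, limma adjusted p 0.0363), and a further Cdh2 probe set gave a log2 ratio of 0.86. The call was lost without the FoxO6-/- brain array (limma adjusted p 0.0565) and with the average of both probe sets (0.0707).

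Cdh4 encodes R-cadherin, first described in retina. Its signals were 282 and 328 in FoxO6-/- and WT mandible and maxilla and 1290 and 1026 in FoxO6-/- and WT brain, so that both brain arrays exceeded both others by more than the difference between genotypes. The fold was 3.79 (log2 1.92, SE 0.21, limma adjusted p 0.0215). With the average of all its probe sets, 1 of which lay below the floor on every array, the log2 ratio was 0.93 and the call was lost (limma adjusted p 0.0729). Cdh15 encodes M-cadherin of myoblasts and satellite cells. It had 434 and 506 in FoxO6-/- and WT mandible and maxilla and 199 and 235 in FoxO6-/- and WT brain, a 2.16-fold higher signal in mandible and maxilla (log2 -1.11, SE 0.15, limma adjusted p 0.0293). The call was lost without the WT mandible and maxilla array (limma adjusted p 0.0537) or without the FoxO6-/- brain array (0.0730). Of the 10 skeletal muscle markers 6 were also higher in mandible and maxilla by the same test. The remaining member, Cdh3, encodes P-cadherin of basal epithelial cells. Its signals of 264 and 317 in mandible and maxilla and 169 and 133 in brain did not overlap, but the log2 ratio of -0.95 did not pass the test (limma adjusted p 0.0822). Cdh3 was called higher in mandible and maxilla with low values raised to the floor and without a genotype term.

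Among the 11 type II classical cadherins, which are known for sorting neuron groups and for mesenchymal and endothelial junctions, 8 were fitted and 4 were higher in brain. Cdh8 had signals of 46.2 and 29.3 in FoxO6-/- and WT mandible and maxilla and of 498 and 407 in FoxO6-/- and WT brain. Mandible and maxilla lay below the floor, and brain was at least 4.47-fold higher with those signals set to the floor (log2 as measured 3.61, SE 0.18, limma adjusted p 0.0086). Cdh22 had 50.9 and 49.1 in mandible and maxilla and 272 and 250 in brain for FoxO6-/- and WT, at least 2.59-fold higher in brain (log2 as measured 2.38, SE 0.15, limma adjusted p 0.0098). Both genes are known mainly from neurons. Cdh9 had 44.1 and 32.7 against 239 and 142 in the same order, at least 1.83-fold higher in brain (log2 as measured 2.28, SE 0.17, limma adjusted p 0.0124), and with the signals raised to the floor it was no longer called (log2 0.87, limma adjusted p 0.0672). These 3 genes entered the fit only through their brain signals. Cdh10 was above the floor on all arrays, with 156 and 181 in FoxO6-/- and WT mandible and maxilla and 701 and 576 in FoxO6-/- and WT brain. It was 3.78-fold higher in brain (log2 1.92, SE 0.20, limma adjusted p 0.0202). Its further probe sets had means below the floor, with log2 ratios of 1.22, 5.42 and 0.11. With all its probe sets averaged, Cdh10 was not fitted.

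The type II members without a call are known from other cell types. Cdh11, a cadherin of mesenchyme and osteoblasts, had 10169 and 9593 in mandible and maxilla and 7268 and 5878 in brain. The 2 tissues did not overlap, and the log2 ratio was -0.60 (limma adjusted p 0.101). With a variance trend Cdh11 was called higher in mandible and maxilla (limma adjusted p 0.0316). Cdh5, the VE-cadherin of endothelial junctions, had a log2 ratio of -0.43, Cdh19, known in rat from Schwann cell precursors, -0.68 and Cdh6 0.39, with limma adjusted p of 0.164, 0.130 and 0.223. Cdh7, Cdh18 and Cdh20 were not fitted. The median of the 8 fitted type II cadherins was 1.15 and that of the 5 fitted type I cadherins -0.95, against -0.05 for all genes. Over the 5 type II cadherins at the floor in both tissues the median was -0.43, so the sign of the type II median rests on the 3 genes measured only in brain.

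The upstream sequences of Cdh10 and Cdh8 are shown as those of the called type II genes with the most and with a single E-box, the motif CANNTG bound by bHLH and Snail family factors. Each is the 250 bases before the gene start in the RefSeq promoter table (build GRCm38.p6), 5' to 3' on the gene's strand, with E-boxes in capitals. The Cdh10 window is chr15:18820079-18820328 on the plus strand and the Cdh8 window is chr8:99416472-99416721 on the minus strand.
Cdh10: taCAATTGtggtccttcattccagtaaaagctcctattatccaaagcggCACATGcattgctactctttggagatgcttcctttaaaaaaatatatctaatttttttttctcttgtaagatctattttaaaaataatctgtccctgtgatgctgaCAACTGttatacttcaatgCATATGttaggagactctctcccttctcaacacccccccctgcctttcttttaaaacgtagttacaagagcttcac
Cdh8: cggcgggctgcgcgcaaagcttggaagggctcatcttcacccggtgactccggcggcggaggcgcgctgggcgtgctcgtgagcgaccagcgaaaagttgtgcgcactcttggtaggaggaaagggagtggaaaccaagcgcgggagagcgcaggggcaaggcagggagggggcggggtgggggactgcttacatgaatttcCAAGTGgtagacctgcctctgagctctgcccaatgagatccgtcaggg
Of 55 members 20 had an entry in that table, with 23 windows. CANNTG, which reads the same on both strands, was present in 11 of the 23 windows (47.8%) and in 66.2% of all 32851 windows of this length. GTAAACA, the forkhead core motif, searched on both strands and not overlapping with CANNTG, was present in none of the 23 and in 3.17% of all windows. A match is a description of the letters only.

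The delta protocadherins were the subfamily with the most calls, since 6 of the 8 that were fitted were higher in brain and none was higher in mandible and maxilla. Their median log2 ratio was 1.79, with 7 of 8 above 0, against a median of -0.05 and 45.3% above 0 over all genes. Pcdh11x entered the fit only through its brain signal and so had to differ. Of the 7 delta protocadherins at the floor in both tissues 5 were called and 6 were above 0, with a median of 1.74. Pcdh11x had 60.4 and 64.1 in FoxO6-/- and WT mandible and maxilla, below the floor, and 1378 and 1068 in FoxO6-/- and WT brain. Brain was at least 12.0-fold higher (log2 as measured 4.28, SE 0.19, limma adjusted p 0.0086), and the second probe set gave a log2 ratio of 3.63. Pcdh11x is an X-linked gene known from brain. Pcdh10, a protocadherin of forebrain axon tracts, had 231 and 136 in FoxO6-/- and WT mandible and maxilla and 1435 and 1120 in FoxO6-/- and WT brain. It was 7.15-fold higher in brain (log2 2.84, SE 0.18, limma adjusted p 0.0103). The size depends on the probe set, with log2 ratios of 1.82 and 0.45 from 2 further Pcdh10 probe sets above the floor.

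Pcdh19, another X-linked gene, whose human counterpart is linked to an epilepsy of females, had 701 and 672 in FoxO6-/- and WT mandible and maxilla and 2627 and 2328 in FoxO6-/- and WT brain. By this probe set the genotypes differed little within each tissue, and brain was 3.60-fold higher (log2 1.85, SE 0.15, limma adjusted p 0.0137). Further Pcdh19 probe sets gave log2 tissue ratios of 1.55 and 1.44. Their ratios of FoxO6-/- over WT in mandible and maxilla were -0.26 and -0.93. Pcdh9 was 3.33-fold higher (log2 1.74, limma adjusted p 0.0165) and Pcdh17 3.20-fold higher (log2 1.68, limma adjusted p 0.0396) in brain. A second Pcdh9 probe set gave a log2 ratio of 0.74, and with the average of all 3 Pcdh9 probe sets the log2 ratio was 0.81 and the call was lost (limma adjusted p 0.0965). Pcdh8, also called arcadlin or PAPC, is known from synapses and from paraxial mesoderm. It had 107 in FoxO6-/- and 466 in WT mandible and maxilla and 3622 and 3113 in FoxO6-/- and WT brain. Brain was 15.0-fold higher (log2 3.91), but the SE of 0.65 is the largest among the called members because the mandible and maxilla arrays differ from each other, and the limma adjusted p was 0.0454. The call was lost when either brain array was left out (limma adjusted p 0.0916 without FoxO6-/- brain and 0.0805 without WT brain). The fold was 7.20 without the FoxO6-/- and 31.3 without the WT mandible and maxilla array.

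The exceptions among the delta protocadherins were Pcdh18 and Pcdh7. Pcdh18 was the only fitted delta member with a higher signal in mandible and maxilla, 1624 and 1816 against 1094 and 1010 in FoxO6-/- and WT. Its log2 ratio of -0.71 did not pass the test in the main fit (limma adjusted p 0.0814). It was called higher in mandible and maxilla with a floor at the 75th percentile, with low values raised to the floor and with probe sets averaged. The same call came without a genotype term and with a variance trend. For Pcdh7 the probe sets disagreed. The brightest had 465 and 523 in FoxO6-/- and WT mandible and maxilla and 1378 and 868 in brain, a log2 ratio of 1.15 (limma adjusted p 0.0825). By that probe set Pcdh7 was called higher in brain with a floor at the 75th percentile and with low values raised to the floor. It was also called without a genotype term and with a variance trend. The second had 281 and 288 against 148 and 102, a ratio of -1.21. It was the only one of 16 members with 2 probe sets at the floor whose tissue ratios had opposite signs, and its direction is therefore not settled by these arrays.

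Upstream sequences of Pcdh8 and Pcdh18 are shown as those of the delta protocadherins with the highest and the lowest tissue ratio among the members listed in the promoter table. Each is again the 250 bases before the start in build GRCm38.p6, on the minus strand, at chr14:79771313-79771562 for Pcdh8 and chr3:49757317-49757566 for Pcdh18. Neither window holds CANNTG or GTAAACA, so no base is in capitals.
Pcdh8: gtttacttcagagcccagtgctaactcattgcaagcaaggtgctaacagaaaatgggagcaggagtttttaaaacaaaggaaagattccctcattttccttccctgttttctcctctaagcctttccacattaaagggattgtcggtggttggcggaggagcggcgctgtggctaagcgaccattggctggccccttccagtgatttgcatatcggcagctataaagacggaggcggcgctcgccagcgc
Pcdh18: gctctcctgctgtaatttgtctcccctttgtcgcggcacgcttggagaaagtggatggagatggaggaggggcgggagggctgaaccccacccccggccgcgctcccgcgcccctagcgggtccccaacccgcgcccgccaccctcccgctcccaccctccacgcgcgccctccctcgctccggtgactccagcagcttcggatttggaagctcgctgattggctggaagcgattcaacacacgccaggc

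**Figure D2:**
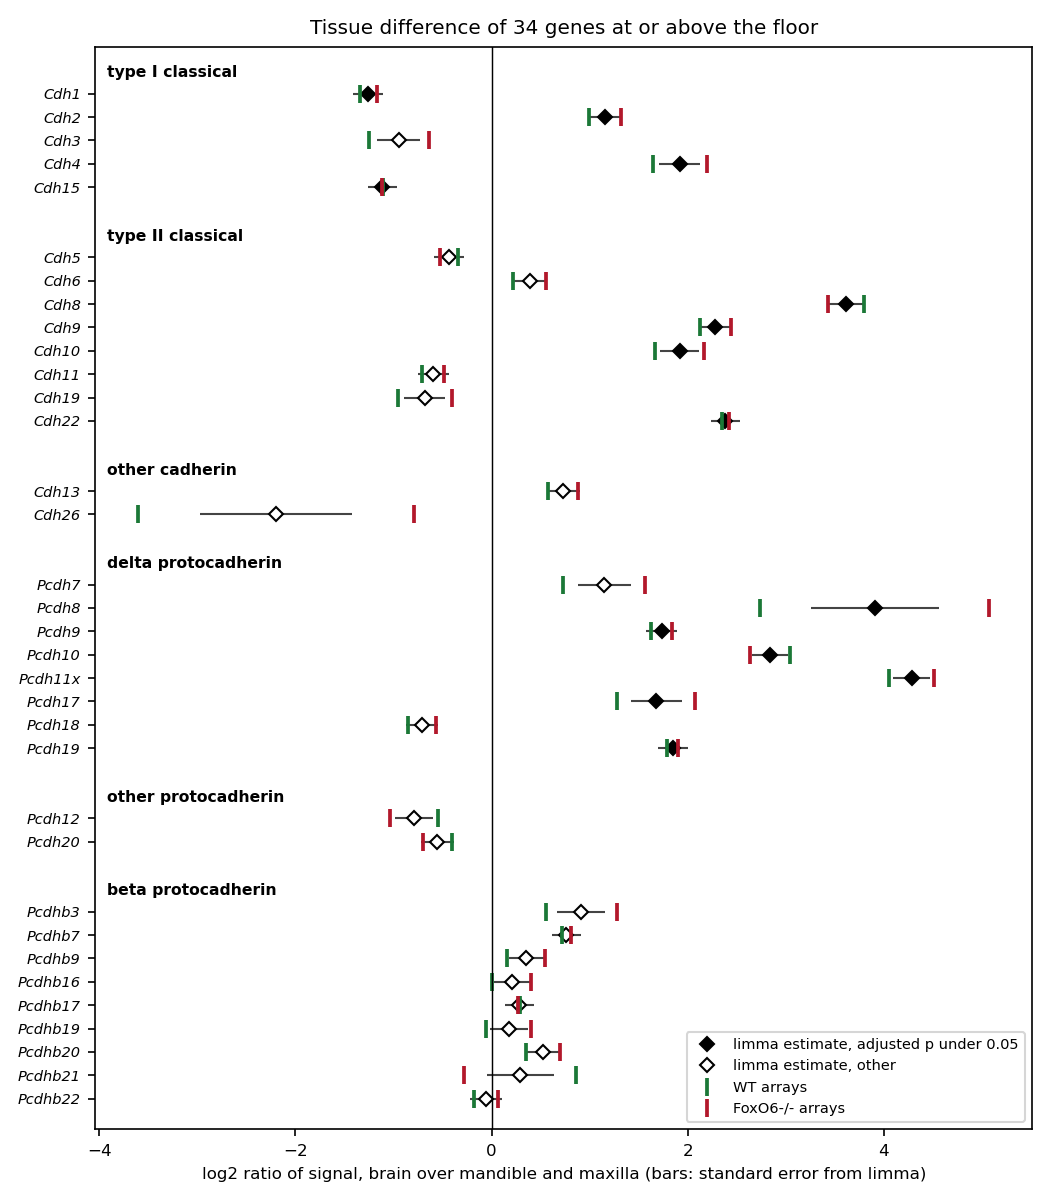
log2 ratio of signal, brain over mandible and maxilla, for the 34 members fitted by limma, by subfamily. Diamonds are the limma estimate with its standard error, filled where the adjusted p is under 0.05, and the ticks are the ratios of the WT arrays (green) and FoxO6-/- arrays (red). Of the 14 filled diamonds 12 lie above 0, while all 9 beta protocadherins have open diamonds between -0.06 and 0.91.

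The fitted beta protocadherins differed by less than 2-fold between the tissues. Of the 9 fitted, 8 had a ratio above 0, with a median of 0.29, a lowest value of -0.06 (Pcdhb22) and a highest of 0.91 (Pcdhb3). Pcdhb7 had 305 and 289 in FoxO6-/- and WT mandible and maxilla and 536 and 474 in FoxO6-/- and WT brain. These signals did not overlap, and its log2 ratio of 0.76 had the smallest limma adjusted p of the subfamily, 0.0592. Pcdhb7 was called higher in brain after median centring, with low values raised to the floor, without a genotype term and with a variance trend. It was also called when both tissues had to reach the floor. The other cadherins and protocadherins had no call in the main fit. Cdh13, the T-cadherin that is held by a lipid anchor and lacks a cytoplasmic tail, had a log2 ratio of 0.73 (limma adjusted p 0.0795). It was called higher in brain with a floor at the 75th percentile, with low values raised to the floor, without a genotype term and with a variance trend. Cdh26 had 157 and 238 in FoxO6-/- and WT mandible and maxilla and 90.5 and 19.6 in brain, and its log2 ratio of -2.20 carried an SE of 0.78 (limma adjusted p 0.161). With low values raised to the floor Cdh26 was called higher in mandible and maxilla. Pcdh12, a vascular endothelial protocadherin, had -0.79 and Pcdh20 -0.55. Cdh23 and Pcdh15, which form the tip links of inner ear hair cells, were not fitted. Cdh23 lay between 3.25 and 39.6 on the 4 arrays, and Pcdh15 had 127 and 124 in brain and 49.6 and 50.6 in mandible and maxilla.

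The alpha protocadherins were not members, but 3 shared probe sets with a mean over the 4 arrays above the floor are each annotated to 14 alpha genes, which share constant exons, and cannot be assigned to an isoform. The brightest had 265 in FoxO6-/- and 722 in WT mandible and maxilla and 4721 and 4096 in FoxO6-/- and WT brain, a log2 tissue ratio of 3.33. The other two lay below the floor in FoxO6-/- mandible and maxilla and gave 3.25 and 2.44 as measured, or 2.80 and 1.83 with that signal set to the floor. Thus the alpha cluster differed more between the tissues than any fitted beta protocadherin, as a description without a test.

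The partners of cadherins in the junction were read from the same fit, where 8.73% of all genes were higher in brain and 6.48% in mandible and maxilla. The calls in the catenin list and in the Fat, Dachsous and Celsr list are too few to be read as a departure from these shares. Of 16 catenin and junction linker genes 14 were fitted, and 2 were higher in brain, Ctnna2 and Ctnnd2, the alpha- and delta-catenins known from neurons, with log2 ratios of 2.39 and 3.37. The nectin gene Nectin4 was higher in mandible and maxilla (-1.04). The list had a median of -0.29. Ctnnb1, the beta-catenin that binds all classical cadherins, had 26361 and 20676 in FoxO6-/- and WT mandible and maxilla and 21969 and 18718 in brain, and is named here with its values known. Among 9 desmosomal cadherins and plaque genes, 7 were higher in mandible and maxilla and the median was -2.24, with Dsg1a at -3.44 and Dsc1 at -2.92. Of 8 Fat, Dachsous and Celsr genes, the large cadherins of planar polarity, 2 were higher in brain, Celsr3 and Fat3. Fat3 had a log2 ratio of 1.09. Celsr3 had 4.43 and 14.6 in mandible and maxilla, far below the floor, and 277 and 352 in brain. It entered the fit only through its brain signal and was at least 3.10-fold higher there.

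Between genotypes each tissue has 1 array per group, so that the differences have no replicate check, no SE and no test, and only genes at least 2-fold different are counted. In mandible and maxilla 1 of 30 members at the floor was at least 2-fold higher on the FoxO6-/- array, against 0.591% of 12186 genes, and 1 was at least 2-fold lower, against 1.69%. The median log2 ratio of FoxO6-/- over WT was -0.09 for the members and -0.01 for all genes, and 13 of 30 members were above 0 against 48.7% of all genes. The type I cadherins had a median of -0.22, the type II cadherins -0.08, the delta protocadherins -0.16 and the beta protocadherins 0.17, with 6 of 9 above 0. The epithelial cadherin Cdh1 had a log2 ratio of 0.07, the mesenchymal Cdh11 0.08, N-cadherin Cdh2 -0.10, the endothelial Cdh5 -0.07 and the muscle cadherin Cdh15 -0.22. The ratios of 2 probe sets of the same member differed with an SD of 0.47, so these values are within the spread between probe sets.

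Pcdh8 had the largest genotype ratio in mandible and maxilla among the 30 members at the floor there. The signal was 107 on the FoxO6-/- array and 466 on the WT array, a log2 ratio of -2.12 or a 4.34-fold lower signal in FoxO6-/-. The second Pcdh8 probe set gave 80.7 and 256, a log2 ratio of -1.67 in the same direction, or at least 2.54-fold lower with the signal below the floor set to it. In brain the gene had 3622 and 3113, a log2 ratio of 0.22, and the second probe set 1797 and 1548, a ratio of 0.21. The FoxO6-/- array was thus the lower one in mandible and maxilla and the higher one in brain. The 3 shared alpha protocadherin probe sets had the same order in mandible and maxilla, with 265 against 722 (log2 -1.45), 54.1 against 175 (-1.69) and 43.6 against 133 (-1.61) in FoxO6-/- and WT. The FoxO6-/- signals of the second and the third were below the floor, so these were at least 1.74- and 1.32-fold lower. All 3 had ratios of 0.20, 0.17 and -0.01 in brain.

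Neuronal, glial, olfactory and cartilage markers moved in the direction of Pcdh8 and the alpha cluster in mandible and maxilla. All 9 neuronal markers at the floor there had a lower FoxO6-/- signal, with a median log2 ratio of -0.72. As measured 2 were at least 2-fold lower, Elavl3 (127 against 433) and Snap25 (63.4, below the floor, against 197). The 10 neuronal markers summed to 4188 on the FoxO6-/- and 6077 on the WT array. Of 5 glial markers 4 were lower, with a median of -0.65, and of 6 olfactory and nasal markers 5 were at least 2-fold lower, with a median of -1.84. All 9 cartilage markers were lower, 4 of them at least 2-fold, with a median of -0.91. The epithelial (0.37), endothelial (0.21), bone (0.17) and skeletal muscle markers (0.03) had medians above 0. In brain all 10 neuronal markers were higher on the FoxO6-/- array (median 0.39). The part of these markers in the Pcdh8 difference was not tested. The other brain-high delta protocadherins at the floor in mandible and maxilla had genotype ratios of 0.77 (Pcdh10), 0.06 (Pcdh9 and Pcdh19) and -0.21 (Pcdh17). Further probe sets gave -0.21 and 0.27 for Pcdh10, -0.13 for Pcdh9, -0.26 and -0.93 for Pcdh19 and -0.37 for Pcdh17, so that only for Pcdh17 did all probe sets at the floor have the direction of Pcdh8.

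**Figure D3:**
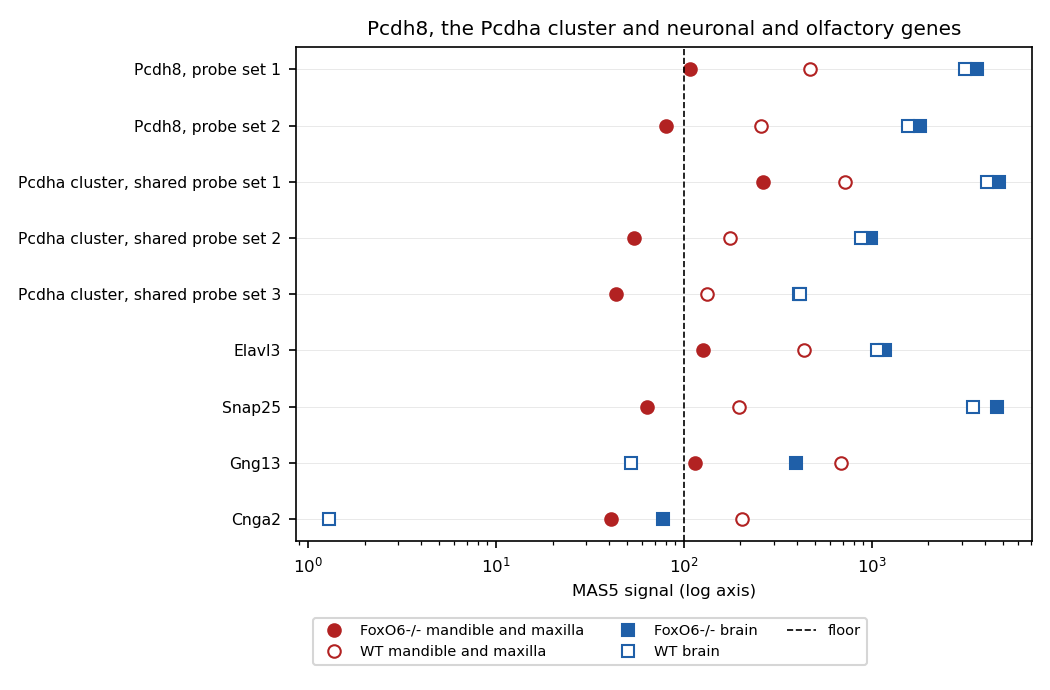
MAS5 signal (log axis) on the 4 arrays for both Pcdh8 probe sets, the 3 shared alpha protocadherin (Pcdha) probe sets with a mean above the floor, the neuronal markers Elavl3 and Snap25 and the olfactory genes Gng13 and Cnga2. In mandible and maxilla (circles) the filled FoxO6-/- symbol lies left of the open WT symbol in every row shown, and in brain (squares) the genotypes lie close together except in the 2 olfactory rows. The marker genes shown are among the lowest of their lists by FoxO6-/- over WT signal in mandible and maxilla, so they do not stand for the lists. Of markers at the floor there, all 9 neuronal and 5 of 6 olfactory and nasal ones were lower. Not shown are Map2, nearly equal with 1182 in FoxO6-/- and 1206 in WT, and 2 higher in FoxO6-/-, Adcy3 (695 and 546) and Rbfox3 (68.4 and 51.0, below the floor).

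The member at least 2-fold higher in FoxO6-/- mandible and maxilla was Pcdhb21, with 175 against 77.9 in WT (log2 1.17). The WT signal lay below the floor, and the second Pcdhb21 probe set had 109 against 118, a ratio of -0.12. It was the only one of 13 members with 2 probe sets at the floor whose ratios in mandible and maxilla were opposite in sign and more than 1 apart. With the mean of both probe sets, or with low signals raised to the floor, the difference was under 2-fold.

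In brain none of 35 members was at least 2-fold higher or lower on the FoxO6-/- array, against 1.13% and 2.03% of 12327 genes. Small differences in 1 direction were common, since 32 of 35 members had a higher signal on the FoxO6-/- array, against 57.3% of all genes, and the median log2 ratio was 0.28 against 0.05. All 10 beta protocadherins were above 0, from 0.03 (Pcdhb21) to 0.76 (Pcdhb19), with a median of 0.42. Pcdhb22 had 339 in FoxO6-/- and 202 in WT brain and Pcdhb17 652 and 422, log2 ratios of 0.75 and 0.63. The 8 delta protocadherins were also all above 0, with a median of 0.32, from 0.12 (Pcdh18) to 0.67 (Pcdh7). These ratios compare single arrays, and beta genes are close relatives of each other, so they are not independent observations. Most are smaller than the SD of 0.40 between ratios of 2 probe sets of a member, although the beta median of 0.42 is not. That SD compares probe sets on the same arrays and does not measure the spread between arrays or animals. The median absolute difference between 2 probe sets was 0.16, and in 15 of 16 members with 2 probe sets at the floor both ratios had the same sign.

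Below 0 in brain were Cdh5 (-0.25), Cdh15 (-0.24) and Pcdh12 (-0.46). Cdh5 and Pcdh12 are endothelial genes, and all 7 endothelial markers at the floor were lower on the FoxO6-/- brain array (median -0.29). Cdh15 is a muscle gene, and 8 of 10 skeletal muscle markers were lower there (median -0.20). In mandible and maxilla all 7 endothelial markers were higher in FoxO6-/- (median 0.21), with Cdh5 at -0.07 and Pcdh12 at 0.03. Of the 10 skeletal muscle markers 6 were higher there (median 0.03), with Cdh15 at -0.22. On the FoxO6-/- brain array the neuronal markers (10 of 10 higher, median 0.39), the epithelial markers (9 of 9 higher, median 0.50) and the cartilage markers (9 of 9 higher, median 0.93) moved in the direction of the other members. Their part in the results was not tested.

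**Figure D4:**
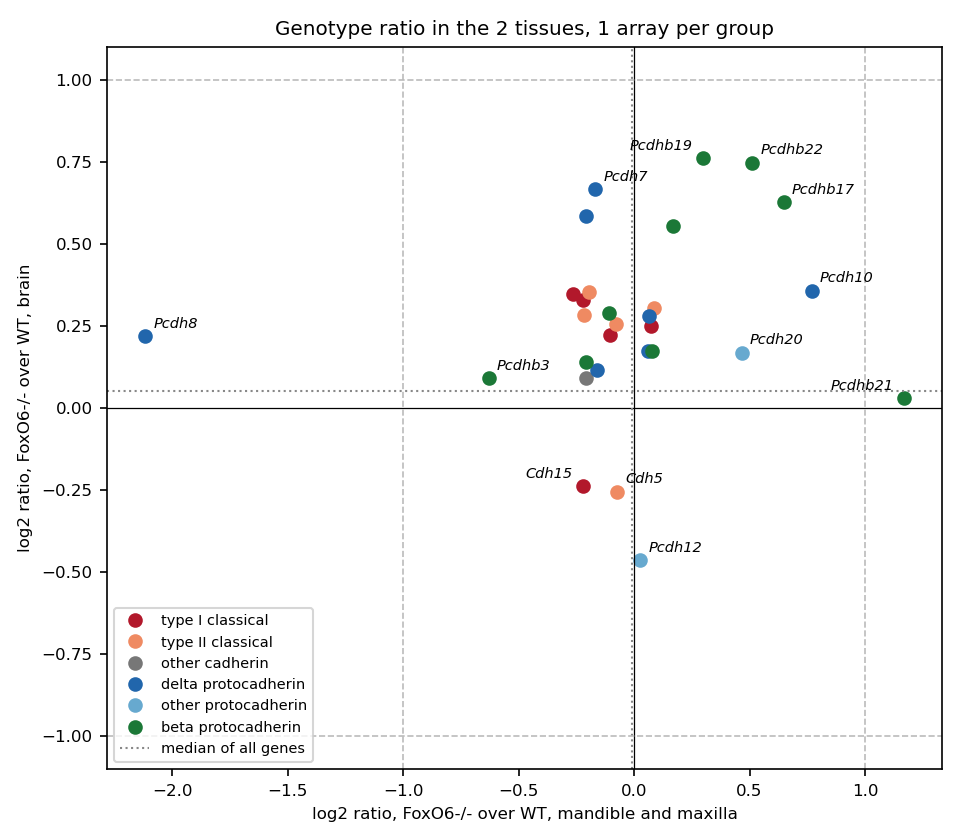
log2 ratio of signal, FoxO6-/- over WT, in mandible and maxilla (horizontal) and in brain (vertical) for the 29 members at the floor in both tissues, coloured by subfamily. Dashed lines mark 2-fold and dotted lines the medians of all genes, -0.01 and 0.05. Pcdh8 lies far to the left at -2.12, Pcdhb21 past 2-fold to the right, and the endothelial and muscle genes Cdh5, Cdh15 and Pcdh12 are the points below 0 in brain.

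Genotype could be tested only over both tissues, which then stand in for replicates. In the same limma fit 0 of 34 members and 0% of 12569 genes passed an adjusted p under 0.05, and the smallest adjusted p was 0.902. At an unadjusted p under 0.05 there were 4 of 34 members and 588 of 12569 genes. These members were Pcdhb17, Pcdhb22, Cdh9 and Pcdh10, with FoxO6-/- over WT log2 ratios of 0.64, 0.63, 0.59 and 0.56. Cdh9 lay below the floor in mandible and maxilla (44.1 and 32.7). The 2 further Pcdh10 probe sets above the floor gave -0.21 and 0.27 in mandible and maxilla and -0.01 and 0.47 in brain. For Pcdhb17 the signals were 539 and 344 in FoxO6-/- and WT mandible and maxilla and 652 and 422 in brain, higher in FoxO6-/- in both tissues. None of the 4 passed the correction.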

How the data were processed

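Mandible and maxilla and brain of FoxO6-/- and WT mice were measured with 1 array each, grouped by the sample labels. Per the methods, the authors normalized with MAS5 and used limma. The deposited values are MAS5 signals, a linear intensity per probe set already scaled between arrays, and were not normalized further. No source used here gives the MAS5 version. Scanner files were not used here.

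Probe sets were named from the platform annotation: of 45101, 34945 have 1 gene, 932 several and 9160 none, beside 64 controls. Genes were compared where their mean over the arrays in question reached 101. limma was fitted to log2 signals, with terms for tissue and genotype (1 residual degree of freedom, 2.40 prior), with Benjamini-Hochberg adjustment over all 12569 genes. Genotype within a tissue is a log2 ratio of 2 arrays, counted at 2-fold. Subfamilies are described by counts and medians, with no set test. The fit was tested on simulated data.

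The members and all gene lists were chosen with earlier results of these data known. All 4 signals were given for members that passed limma (up to 4 per subfamily and direction), members at least 2-fold different between genotypes and members whose probe sets disagreed in genotype ratio; others by ratios, counts and ranges. Partner genes were named where they differed by 2-fold, at most 4 a list. Signals given for members outside this rule, and those named by ratio, were picked with their values known.

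As alternatives, arrays were quantile normalized or centred on their median, the floor was dropped, moved to the 75th percentile (524) or used as a lower bound for dimmer signals, and genes were read as the mean over their probe sets or from gene-specific probe sets only. For limma there were also fits with no genotype or tissue term, with a variance trend and without each array in turn. A floor in both tissues was added after seeing the data. The versions were limma 3.58.1 in R 4.3.3, and Python 3.11.15 with pandas 2.3.3 and numpy 2.4.6.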

Additional observations from a re-analysis of the deposited data

Results flagged for a closer look

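The genotype ratio of Pcdh8 pointed in opposite directions in the 2 tissues. It was -2.12 on the log2 scale in mandible and maxilla (107 in FoxO6-/- and 466 in WT) and 0.22 in brain (3622 and 3113), and the second probe set gave -1.67 and 0.21. With 1 array per group the difference between the tissues was not tested. The neuronal markers had medians of -0.72 and 0.39 in mandible and maxilla and brain. In the same order the olfactory and nasal markers had -1.84 and 2.69 and the cartilage markers -0.91 and 0.93.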

How the results depend on the processing

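Arrays without replicates limit every value here. The 12 and 2 members higher in brain and in mandible and maxilla were 12 and 2 after quantile normalization and with gene-specific probe sets. They were 13 and 2 after median centring, 10 and 2 with a floor at the 75th percentile and 9 and 2 with both tissues at the floor. At the 75th percentile only 8 and 1 of these were calls of the main fit, and Cdh13, Pcdh7 and Pcdh18 were gained. When probe sets were averaged the counts were 8 and 3, with Pcdh18 gained. There Cdh2, Cdh4 and Pcdh9 lost their calls and Cdh10 fell below the floor and was not fitted. Without a floor limma called 0 and 0 members and 0 genes (smallest adjusted p 0.118), and the cause was not tested. At an unadjusted p under 0.05 there were 17 and 4 members in that fit, with no share of all genes counted. The counts were 14 and 5 with low values raised to the floor, where Cdh9 lost its call, and 15 and 4 both without a genotype term and with a variance trend. Calls of the main fit made up 11 and 2 of the 14 and 5, and 12 and 2 of the 15 and 4 in either fit. Leaving out 1 array gave 10 to 13 members higher in brain and 1 to 2 in mandible and maxilla, where the lone array of a tissue was assumed to vary like the pair of the other. Cdh2 lost its call without FoxO6-/- brain, Pcdh8 without either brain array and Cdh15 without WT mandible and maxilla or FoxO6-/- brain. Of the calls, the share higher in brain was 85.7%, 73.7% with low values raised and 72.7% when probe sets were averaged. Over all genes the counts higher in brain and in mandible and maxilla were 1097 and 814, 588 and 537 when probe sets were averaged, and 1576 and 1340 with a variance trend. Of the tissue results of the 14 called members in those alternatives that still fitted them, 163 kept their call, 23 lost it, 14 of them without a floor, and none changed direction. Not counted are results where a called member fell below the floor and so had no call. These were Cdh8, Cdh9, Cdh10, Cdh15 and Cdh22 at the 75th percentile and Cdh10 with probe sets averaged. With both tissues at the floor they were Cdh8, Cdh9, Cdh22 and Pcdh11x. Members 2-fold higher and lower in FoxO6-/- mandible and maxilla, 1 and 1, were 3 and 8 of 55 without a floor, against 1415 and 1432 of 18193 genes. With the higher floor they were 0 and 0 of 9, against 24 and 45 of 7247 genes. With low values raised 0 were higher, against 60 of 12186 genes. With probe sets averaged 0 were higher, against 129 of 10527 genes, and Pcdhb21 had a log2 ratio of 0.52. In brain, 0 and 0, they were 8 and 4 of 55 without a floor, against 1515 and 1314 of 18193 genes. When probe sets were averaged 1 of 30 was higher (Pcdh7), against 201 of 10450 genes. Median centring moved the median of all genes between genotypes to 0.13 in mandible and maxilla, with 17 of 30 members above 0, and to 0.20 in brain, where the members had 0.42 and the beta protocadherins 0.57. The genotype fit over both tissues called 0 members under all 9 alternatives run.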

Other observations

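The gamma protocadherins, whose symbols the choice of members did not cover, had 1 probe set of a single gene. Pcdhgc4 had signals of 140 and 143 in FoxO6-/- and WT mandible and maxilla and of 112 and 185 in FoxO6-/- and WT brain, so that the tissues overlapped. Jup, the plakoglobin that links classical and desmosomal cadherins to the cytoskeleton, had 988 in FoxO6-/- and 535 in WT mandible and maxilla (log2 0.89) and 392 and 396 in brain, and is named here with its values known. All 9 desmosomal genes had a higher signal on the FoxO6-/- than on the WT brain array, with a median log2 ratio of 0.35, where 9 of 9 epithelial markers were also higher.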
